A study of Mus musculus with 9 samples.

Results

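Immediate early genes are genes whose transcription is switched on quickly after a stimulus, without the need for new protein. The 10 examined here are Fos, Fosb, Jun, Junb, Egr1, Egr2, Egr3, Atf3, Ier2 and Nr4a1, chosen by symbol from a list of classical members of the class, of 47069 genes in the count tables. They were followed in bulk RNA sequencing of a mouse prostate cancer model. Bulk means that a whole piece of tissue is sequenced, so that fewer cells of a type and less RNA per cell cannot be told apart.

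The libraries came from 3 kinds of tissue, with n = 3 each: distal metastases, proximal metastases from the epididymal fat, and primary prostate tumours. The distal site is given as diaphragm in the tissue field but as lung in the growth protocol. Transcripts of lung surfactant genes were at or near 0 in the distal libraries, with 0.0750, 0 and 0.0667 CPM (counts scaled to the library total) of Sftpc in distal 1, 2 and 3 and 0 CPM of Sftpa1 in each. All mice, those with primary tumours included, were C57BL/6, about 9 to 10 months old, and carried the allele labelled Ctnnb1pc(ex3)delta/+ among their engineered changes. It is a deletion of exon 3 on 1 allele of Ctnnb1, the gene for beta-catenin. The labels do not say which promoter drives the deletion, and no group with unaltered alleles is compared here. The tissue was frozen before RNA extraction. The samples are stated to be matched within 3 mice, but not which of them share a mouse, so all tests treat the 9 libraries as independent.

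In the textbook scheme, growth factors and stress activate kinases of the MAPK family and the kinases of the cAMP pathway. These phosphorylate transcription factors already bound at the promoters, among them SRF with its ELK partners at CArG boxes and CREB at cAMP response elements. The transcripts made are short-lived, and many encode transcription factors that act on later genes. FOS and JUN family proteins pair to form AP-1, and EGR proteins are zinc finger factors.

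Promoter windows were searched for the letters of such elements. Windows of 300 bases, from 250 before to 50 after the start, were used for 7 of the 10 genes (RefSeq, build GRCm38.p6), all but Egr1, Egr3 and Ier2. Those of 3 genes are shown, because they hold the most matches to the elements searched. Capitals mark the TGACG part of the cAMP response element (CGTCA where it lies on the other strand), TATAAA and the CArG box.
Fos, chr12:85473640-85473939, plus strand: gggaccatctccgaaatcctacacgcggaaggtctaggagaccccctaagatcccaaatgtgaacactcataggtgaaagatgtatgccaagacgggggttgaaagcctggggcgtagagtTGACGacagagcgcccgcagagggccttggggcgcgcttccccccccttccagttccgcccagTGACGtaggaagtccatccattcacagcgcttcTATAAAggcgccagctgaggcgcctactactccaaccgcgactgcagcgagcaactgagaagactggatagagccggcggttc
Nr4a1, chr15:101266596-101266895, plus strand: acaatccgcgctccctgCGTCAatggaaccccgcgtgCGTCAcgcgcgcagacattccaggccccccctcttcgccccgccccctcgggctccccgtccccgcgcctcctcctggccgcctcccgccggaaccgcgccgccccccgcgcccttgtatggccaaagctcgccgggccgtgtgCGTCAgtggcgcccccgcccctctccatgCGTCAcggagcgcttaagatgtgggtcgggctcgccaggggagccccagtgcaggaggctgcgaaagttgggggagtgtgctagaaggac
Egr2, chr10:67537619-67537918, plus strand: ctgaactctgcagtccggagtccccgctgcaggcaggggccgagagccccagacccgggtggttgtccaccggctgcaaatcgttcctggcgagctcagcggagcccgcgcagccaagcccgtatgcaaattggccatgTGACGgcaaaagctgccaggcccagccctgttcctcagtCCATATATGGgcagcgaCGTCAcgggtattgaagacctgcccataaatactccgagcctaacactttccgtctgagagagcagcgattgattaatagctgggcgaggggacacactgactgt

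The Fos window held TGACG 129 and 66 bases before the start, and TATAAA 33 bases before it. The Nr4a1 window held TGACG 4 times, all on the other strand. The Egr2 window held a CArG box 72 bases before the start, between a pair of TGACG matches. Egr2 has 5 annotated windows, of which the one shown is the third. On both strands, TGACG was found in 6 of the 7 genes (all but Jun), against 20.8% of all 32851 windows. A gene counted if any of its windows held a match, and the 7 genes had 11 windows, while the percentages count single windows. A CArG box was found in 1 of the 7 (1.63% of all windows) and TATAAA in 2, Fos and Junb (13.6%). The full site TGACGTCA, which contains TGACG, was in none of the 7 (1.79%). The AP-1 site TGANTCA (7.81%) and the EGR site GCGTGGGCG (0.612%) were also in none of them. A match describes the letters only, and a missing match says nothing of the factor.

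Some libraries stood apart before any comparison was made. Total counts lay between 28334730 and 40408723 per library. Primary 2 had 0.131% of its counts in mitochondrially encoded genes, against 0.868% to 1.18% in the other 8 libraries. It also had 2.28% in CT010467.1 and 1.87% in Lars2, against 0.0654% to 0.236% and 0.0386% to 0.238% in the other 8. Without the counts of these genes, all 40 log2 fold changes of the 10 genes in the 4 comparisons kept their direction and side of the threshold. Primary 2 is also the library with the highest Jun, Junb and Ier2 values. Primary 3 had a summed level of 7 seminal vesicle genes of 10566 CPM, against 3.10 to 30.6 CPM in the other 8. Distal 3 had the highest summed levels of neutrophil genes (578 CPM), red blood cell genes (5851 CPM) and skeletal muscle genes (1024 CPM) of the 9 libraries. The median SD of log2 CPM over the 18204 genes tested was 0.161 in distal, 0.172 in proximal and 0.604 in primary libraries. The fit used 1 dispersion per gene for all groups, so the errors of comparisons with primary tumours can be too small and those between the metastatic sites too large.

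The levels of the 10 genes per kilobase of exon spanned a wide range. Over the 9 libraries Junb averaged 69.4 ± 46.6 CPM per kilobase (SD, n = 9), Ier2 47.1 ± 27.2, Jun 43.8 ± 31.8 and Atf3 31.7 ± 8.38. The means ± SD of neighbours among these 4 overlapped. That spread is over libraries the genes share, so it does not test their order. Egr1 (8.30 ± 5.15 CPM per kilobase), Fos (7.64 ± 4.17) and Nr4a1 (3.90 ± 3.78) formed a middle range, again with overlapping spreads. Egr2 averaged 0.889 ± 0.502, Fosb 0.219 ± 0.0659 and Egr3 0.0788 ± 0.0471 CPM per kilobase. Egr3 rested on 3 to 21 counts per library and is the least precise of the 10. The strand setting of the counting is not given, and 3 of the genes overlap a gene on the other strand: Jun shares 689 bases with Junos, Junb 351 bases with Prdx2, and Atf3 108 bases with Gm24748, which had no counts. The values of Jun and Junb are uncertain to that extent.

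**Figure D1:**
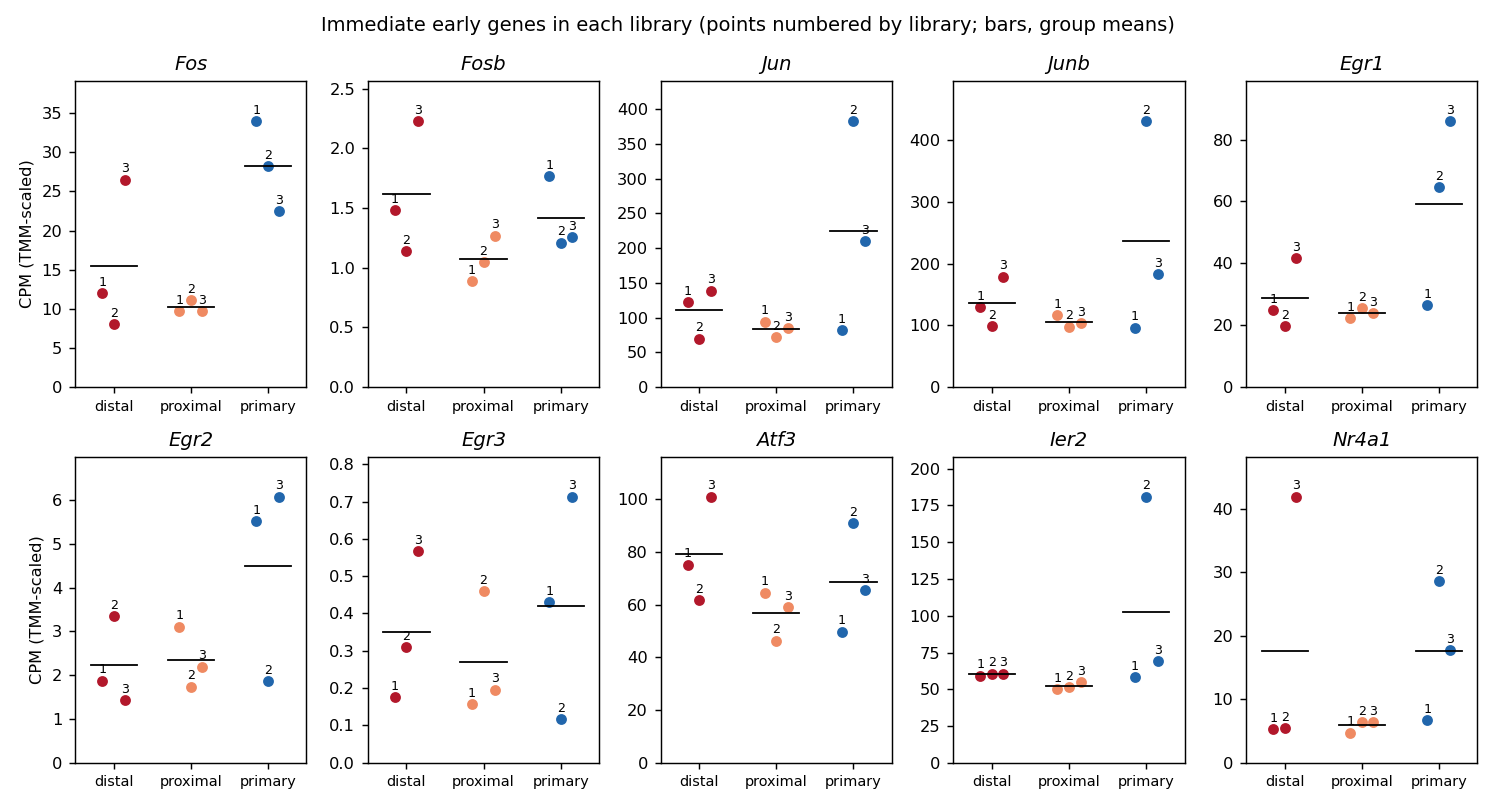
Level of each of the 10 genes in CPM (linear axis) in each library, grouped as distal, proximal and primary, with each point 1 library. Distal 3 stands above the other 5 metastases for 8 of the 10 genes. The primary libraries are the most spread except for Fos, Fosb and Nr4a1, where the distal libraries are.

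Fos encodes the founding AP-1 subunit (ENSMUSG00000021250, chromosome 12, 85473890 to 85477273, GRCm38). It had 12.0, 8.07 and 26.5 CPM in distal 1, 2 and 3, 9.74, 11.1 and 9.69 CPM in proximal 1, 2 and 3, and 34.0, 28.2 and 22.5 CPM in primary 1, 2 and 3. All 3 proximal values lay below all 3 primary values, while distal 3 lay within the primary range. Fosb (chromosome 7, 19302696 to 19310051, minus strand), a close relative of Fos, was low throughout, with 1.48, 1.14 and 2.23 CPM in distal, 0.888, 1.05 and 1.27 CPM in proximal and 1.77, 1.21 and 1.26 CPM in primary libraries 1, 2 and 3. Its 3 groups overlapped, with the highest value in distal 3.

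Jun encodes the partner that binds DNA with FOS or with itself (chromosome 4, 95049034 to 95052222, minus strand). It had 122, 69.9 and 139 CPM in distal, 94.3, 72.4 and 84.9 CPM in proximal and 81.6, 383 and 210 CPM in primary libraries 1, 2 and 3. Primary 1 lay within the range of the metastases, and primary 2 and 3 above it. Junb (chromosome 8, 84974484 to 84978718, minus strand), a JUN relative that can restrain JUN activity, had 130, 99.1 and 179 CPM in distal, 116, 98.1 and 104 CPM in proximal and 96.4, 431 and 183 CPM in primary libraries 1, 2 and 3. Primary 1 was the lowest of the 9 libraries and primary 2 the highest, so the primary group enclosed both metastatic groups. Jun and Junb together made 53.5% of the summed CPM of the 10 genes in distal 3, 67.2% in primary 2 and 49.3% in primary 1.

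Egr1, a zinc finger factor induced by growth factors (chromosome 18, 34859823 to 34864984), had 25.0, 19.7 and 41.7 CPM in distal, 22.2, 25.5 and 23.8 CPM in proximal and 26.4, 64.7 and 86.0 CPM in primary libraries 1, 2 and 3. The proximal values lay below the primary values, by a small margin to primary 1. Egr2 (chromosome 10, 67535475 to 67542188), a relative known for its part in myelination, had 1.88, 3.36 and 1.43 CPM in distal, 3.11, 1.74 and 2.20 CPM in proximal and 5.53, 1.87 and 6.08 CPM in primary libraries 1, 2 and 3. Its pattern over the libraries was its own: it was lowest in distal 3, where most of the others were high. Egr3 (chromosome 14, 70077203 to 70082614), a relative known from muscle spindle development, had 0.175, 0.310 and 0.567 CPM in distal, 0.157, 0.459 and 0.196 CPM in proximal and 0.430, 0.117 and 0.713 CPM in primary libraries 1, 2 and 3, and its groups overlapped.

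Atf3, a stress-induced factor of the ATF family (chromosome 1, 191170296 to 191218039, minus strand), had 75.2, 61.7 and 101 CPM in distal, 64.6, 46.4 and 59.0 CPM in proximal and 49.8, 91.0 and 65.6 CPM in primary libraries 1, 2 and 3. Its groups overlapped and its range over the 9 libraries was the smallest of the 10 genes, at 2.18-fold. Nr4a1, an orphan nuclear receptor (chromosome 15, 101254269 to 101274795), had 5.28, 5.45 and 41.9 CPM in distal, 4.75, 6.43 and 6.46 CPM in proximal and 6.71, 28.6 and 17.7 CPM in primary libraries 1, 2 and 3. Distal 3 was the highest of the 9, and its range of 8.82-fold was the largest of the 10 genes. Ier2, which encodes a nuclear protein of the rapid response (chromosome 8, 84661331 to 84662852, minus strand), had 59.3, 60.7 and 60.6 CPM in distal, 50.1, 51.6 and 54.8 CPM in proximal and 58.3, 181 and 69.4 CPM in primary libraries 1, 2 and 3. The distal values lay close together above the proximal ones, and primary 2 stood alone.

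**Figure D2:**
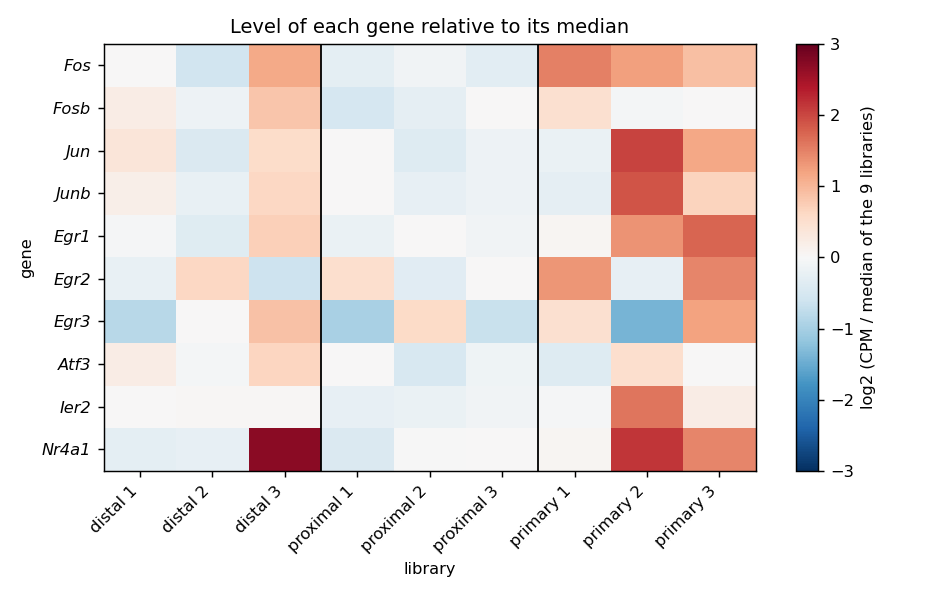
Heat map of log2 of each gene's CPM over its median across the 9 libraries, with genes in lines and libraries in columns. Primary 2, primary 3 and distal 3 hold most of the high values, and Egr2 is low in distal 3.

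The first comparison asked how proximal metastases differ from primary tumours. The 10 genes stood lower on average in the proximal metastases, but none passed the test over all genes. edgeR's quasi-likelihood test called 0 of 10 at an adjusted p below 0.05, as it did 0.0494% of all genes tested. At an unadjusted p below 0.05, 5 of the 10 were lower (Fos, Jun, Junb, Egr1 and Ier2), against 14.3% of all genes. Fos averaged 10.2 ± 0.814 CPM in the proximal metastases and 28.2 ± 5.76 CPM in the primary tumours (SD, n = 3 each), which is -1.47 ± 0.41 (SE) as a log2 fold change, with an edgeR adjusted p of 0.168. The log2 fold change of Egr1 was -1.31 ± 0.43 (SE), with an edgeR adjusted p of 0.203. That of Jun was -1.42 ± 0.51, with an edgeR adjusted p of 0.224. Nr4a1 had the most negative value, -1.58, with an SE of 0.86. All 10 log2 fold changes were negative, with a median of -1.07, where 52.8% of all genes were negative with a median of -0.05. The groups did not overlap for 4 of the 10, Fos, Egr1, Ier2 and Nr4a1, against 19.4% of all genes. Without primary 1 the test called 4 of the 10 lower: Jun (log2 fold change -1.80, edgeR adjusted p = 0.0103), Junb (-1.51, adjusted p = 0.0232), Egr1 (-1.64, adjusted p = 0.00959) and Ier2 (-1.24, adjusted p = 0.0323), together with 28.7% of all genes. Without primary 2 the log2 fold changes of Jun, Junb and Ier2 were -0.80, -0.40 and -0.29. DESeq2 called Fos (log2 fold change -1.49, adjusted p = 0.0112), with 8.43% of all genes, and limma-voom with sample quality weights called Egr1 (-1.61, adjusted p = 0.0271), with 19.8%.

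The second comparison asked the same of the distal metastases. The averages of 8 of the 10 genes were lower than in primary tumours, and those of Fosb and Atf3 were higher. edgeR called 0 of 10, against 0.0879% of all genes, and 1 of 10, Egr1, was lower at an unadjusted p below 0.05, against 13.5% of all genes. Egr1 averaged 28.8 CPM in the distal metastases and 59.0 CPM in the primary tumours, which is -1.04 ± 0.43 (SE) as a log2 fold change, with an edgeR adjusted p of 0.273. Nr4a1 averaged 17.5 ± 21.1 CPM in the distal metastases and 17.7 ± 10.9 CPM in the primary tumours (SD, n = 3 each), which is -0.01 ± 0.84 (SE) as a log2 fold change. That average rests on distal 3: without it the log2 fold change was -1.70. The median over the 10 genes was -0.79, and no gene had groups that did not overlap, against 18.8% of all genes. Without primary 2 the median was -0.24. Without primary 1 the test called Jun (-1.40, edgeR adjusted p = 0.0241) and Egr1 (-1.37, edgeR adjusted p = 0.0183), with 27.4% of all genes. DESeq2 and limma-voom called none of the 10, and voom with quality weights called Egr1 (-1.46, adjusted p = 0.0387), with 17.2% of all genes.

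The third comparison set the metastatic sites against each other. The averages of 9 of the 10 genes were higher in distal than in proximal metastases, and Egr2 differed by -0.08 on the log2 scale. edgeR called 0 of 10, as it did 0% of all genes tested, and 0 of 10 had an unadjusted p below 0.05. DESeq2, limma-voom and voom with quality weights also called 0 of 10. Nr4a1 had the highest log2 fold change, 1.57 (SE 0.86), followed by Fos with 0.60 (SE 0.41), each with an edgeR adjusted p of 1. The groups did not overlap for 1 of the 10, against 7.62% of all genes: Ier2 averaged 60.2 ± 0.788 CPM in distal against 52.2 ± 2.41 CPM in proximal metastases (SD, n = 3 each), which is 0.21 ± 0.38 (SE) as a log2 fold change. The median over the 10 genes was 0.38, against -0.01 over all genes. Without distal 3 it was 0.13, with 6 of 10 positive, and Fos, Egr1, Egr3 and Nr4a1 were at -0.02, -0.09, -0.15 and -0.13.

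The fourth comparison set the mean of both metastatic sites against the primary tumours, using the same primary libraries as the first and second. It called 0 of 10 genes, against 3.71% of all genes. At an unadjusted p below 0.05, 5 of 10 were lower, as were 18.6% of all genes. The lowest edgeR adjusted p, 0.0982, was that of Fos, whose log2 fold change was -1.17 ± 0.34 (SE). Egr1 followed with -1.17 ± 0.36 and an adjusted p of 0.109, Jun with -1.22 ± 0.42 and an adjusted p of 0.138, and Ier2 with -0.88 ± 0.32 and an adjusted p of 0.160. Atf3 was at -0.04 (SE 0.23) and Fosb at -0.11 (SE 0.31). The groups did not overlap for 0 of 10, against 10.2% of all genes. The median over the 10 genes was -0.93, and -0.44 without primary 2. DESeq2 called Fos (-1.19, adjusted p = 0.0160), Egr1 (-1.21, adjusted p = 0.0274) and Jun (-1.28, adjusted p = 0.0489), with 15% of all genes. Limma-voom called none, and voom with quality weights called Egr1 (-1.54, adjusted p = 0.0233), with 21.3% of all genes. Without primary 1, edgeR called 4 of 10, with 34.8% of all genes.

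**Figure D3:**
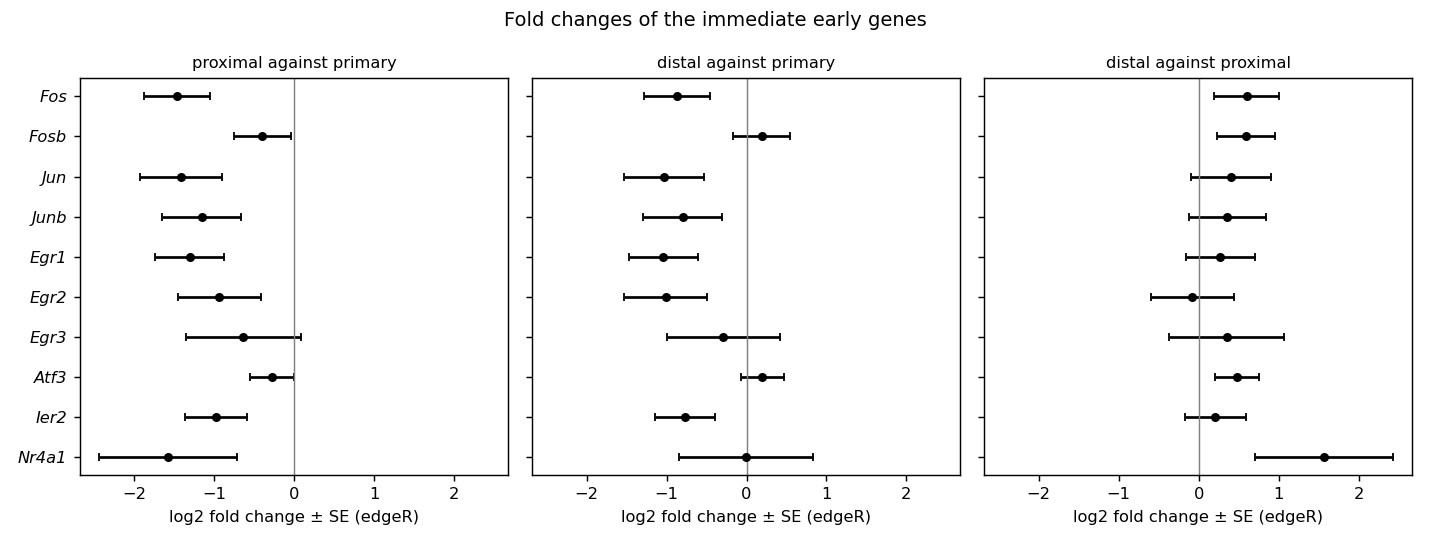
Log2 fold change of each of the 10 genes in 3 comparisons (distal against primary, proximal against primary, distal against proximal), with bars of 1 SE from edgeR. All 10 values of proximal against primary lie below 0, and no value passed the adjusted threshold.

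Single libraries carried much of the variation. Among the 6 metastases, distal 3 lay above the range of the other 5 for 8 of the 10 genes, as it did for 21.5% of all genes. Nr4a1 stood at 41.9 CPM in distal 3, 7.68 times the median of the other 5 metastases. The ratio was 2.89 for Egr3, 2.72 for Fos, 1.95 for Fosb, 1.75 for Egr1, 1.72 for Junb, and 1.64 for both Jun and Atf3. Ier2 was within the range and Egr2 below it. In the same library all 8 neutrophil genes tested, all 7 red blood cell genes and all 6 skeletal muscle genes lay above the other 5 metastases, as did 7 of 10 macrophage genes. The summed neutrophil level was 30.0, 126 and 578 CPM in distal 1, 2 and 3, 9.04 to 21.0 CPM in proximal and 28.5 to 85.7 CPM in primary libraries. The summed skeletal muscle level was 7.55, 748 and 1024 CPM in distal 1, 2 and 3, 4.05 to 5.23 CPM in proximal and 3.06 to 7.65 CPM in primary libraries. Distal 2 lay above the range of the other 5 metastases for 2 of the 10 genes, Egr2 and Ier2, and below it for 3. In distal 3, 8 of 11 heat shock genes also lay above the range of the other 5 metastases, against 21.5% of all genes. The part of these cells in the levels of distal 3 was not tested.

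Primary tumours differed among themselves by gene. Primary 1 lay above the range of the 6 metastases for 2 genes, Fos and Egr2, against 16.1% of all genes. Primary 2 did so for 5, against 36.6%, and primary 3 for 6, against 33.9%. Fos was 3.26, 2.70 and 2.15 times the median of the 6 metastases in primary 1, 2 and 3. Jun was 0.910, 4.27 and 2.34 times that median, and Egr1 1.08, 2.65 and 3.52 times. Thus Fos was more than 2 times that median in all 3 primary tumours, while Jun and Egr1 were so in 2 of them. Fos in primary 3 (22.5 CPM) still lay below distal 3 (26.5 CPM). Primary 1, where Jun and Egr1 were near that median, lay within the range of the 6 metastases for 70.8% of all genes. The ratio of Fos to Jun was 0.417 in primary 1, against 0.0737 in primary 2 and 0.107 in primary 3. The prostate luminal markers summed to 1797 to 1871 CPM in distal and 1372 to 1943 CPM in proximal libraries. Their sums in primary 1, 2 and 3 were 1954, 8028 and 3282 CPM. Krt8 and Krt18 made most of these sums, with 791 and 966 of 1815 CPM in distal 1. Hoxb13 had 44.5, 222 and 68.4 CPM in primary 1, 2 and 3 but 3.03 to 4.94 CPM in the metastases. All 8 luminal markers tested had negative log2 fold changes in the fourth comparison, with a median of -5.41. There edgeR called 4 of the 8 lower, against 3.71% of all genes, and it called 0 in each other comparison. Basal epithelial markers summed to 319, 292 and 433 CPM in distal, 277, 356 and 281 CPM in proximal and 266, 820 and 3060 CPM in primary libraries 1, 2 and 3. In the fourth comparison edgeR called 5 of these 7 markers lower, with 6 negative and 1 positive log2 fold changes and a median of -4.76. Macrophage markers summed to 348, 344 and 653 CPM in distal, 274, 481 and 246 CPM in proximal and 525, 923 and 801 CPM in primary libraries 1, 2 and 3. Endothelial markers summed to 141, 220 and 247 CPM in distal and 156, 229 and 177 CPM in proximal libraries 1, 2 and 3. In primary 1, 2 and 3 the sums were 281, 360 and 286 CPM, above those of all 6 metastases. Vwf alone made 155 CPM of the sum in primary 2. Of the 9 markers, 2 had groups that did not overlap between metastases and primary tumours, against 10.2% of all genes. The part of these cells in the levels of the 10 genes was not tested.

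Within groups the 10 genes varied more than most genes in the distal metastases. Their median SD of log2 CPM was 0.540 in distal libraries, against 0.161 for all genes, and 9 of 10 were above the median of all genes. In proximal libraries it was 0.220, against 0.172, with 6 of 10 above. In primary libraries it was 0.908, against 0.604, with 7 of 10 above. Nr4a1 in distal libraries had the largest SD, 1.705, and Ier2 in distal libraries the smallest, 0.019. The distal spread includes distal 3, which lay above the other metastases for 8 of the 10, so it is not a separate result. The genes behind the median of all genes were not matched to the 10 for level.

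**Figure D4:**
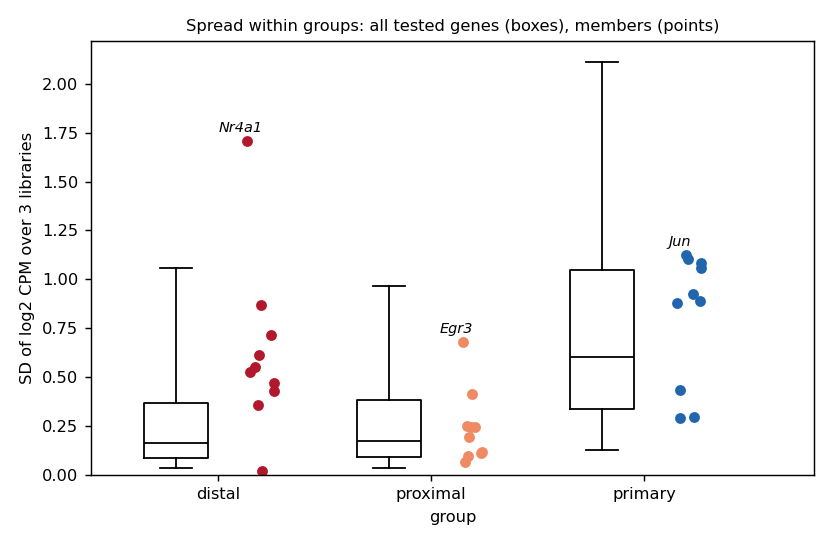
SD of log2 CPM within each group, with a box for all 18204 genes tested (whiskers from the 5th to the 95th percentile) and a point for each of the 10 genes. The points lie highest relative to the box in the distal group, with Nr4a1 at 1.705.

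Across libraries some of the genes moved together, as a description over 9 libraries that share 3 groups and their depth. Pearson's r of log2 CPM was 0.97 for Jun and Junb, 0.92 for Junb and Ier2, and 0.88 for Jun and Egr1. Over the 6 metastases alone it was 0.94 for Jun and Junb but 0.46 for Junb and Ier2. Fos and Egr1 had an r of 0.67 over the 9 libraries and 0.99 over the 6 metastases, and Fos and Nr4a1 one of 0.71 and 0.94. Egr2 ran apart, with an r of -0.80 with Fos and -0.84 with Egr1 over the 6 metastases. The r of Fos, Egr1, Nr4a1 and Egr2 over the 6 metastases can rest largely on distal 3. That library had the highest Fos, Egr1 and Nr4a1 and the lowest Egr2 of the 6. Nr4a1 stood at 41.9 CPM there and at 4.75 to 6.46 CPM in the other 5. The r without distal 3 was not computed.

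The genes most like the mean of the 10 were sought among 10113 genes of at least 10 CPM. Of the genes compared, 0.554% had an r above 0.9, and the median r was -0.167. The highest r over the 9 libraries were those of Lyn (0.981), a kinase of blood cells, Eif2s2 (0.968), a subunit of a translation initiation factor, and Cited2 (0.949), a transcriptional coregulator. Irf7 (0.947), a factor of the interferon response, Sdhb (0.947), a subunit of mitochondrial complex II, and Cd14 (0.944), a receptor for bacterial lipopolysaccharide, followed. Cd14 had 16.9, 15.8 and 41.6 CPM in distal, 8.83, 13.0 and 11 CPM in proximal and 14.6, 73.5 and 39.2 CPM in primary libraries 1, 2 and 3. Its high libraries were distal 3, primary 2 and primary 3. Cd14 was picked by its r with the mean of the 10, so these shared libraries are no separate result.

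Related genes were examined as lists. Of 23 other rapid-response genes 21 were tested, and 1 fell in proximal metastases, where 0.0494% of all genes were called: Klf4, a zinc finger factor of epithelial differentiation. Klf4 had 17.5, 13.9 and 16.6 CPM in distal, 14.5, 15.6 and 14.9 CPM in proximal and 64.3, 51.1 and 88.0 CPM in primary libraries 1, 2 and 3. All metastases lay below all primary tumours. On the log2 scale Klf4 was lower by edgeR in the proximal metastases (-2.18 ± 0.22 SE, adjusted p = 0.0295), in the distal metastases (-2.08 ± 0.22, adjusted p = 0.0378) and in the mean of both (-2.13, adjusted p = 0.00373), each against primary tumours. Leaving out any library but primary 1 or primary 2 ended the proximal call, with adjusted p up to 0.274, and leaving out any but primary 1, primary 2 or distal 1 ended the distal call, with adjusted p up to 0.313. Its log2 fold change then stayed between -2.35 and -1.94 for proximal and -2.25 and -1.85 for distal metastases, and the call on the mean of both held in each case. Ccn2, a secreted matrix protein, had 48.0, 75.9 and 91.2 CPM in distal, 37.5, 43.2 and 39.5 CPM in proximal and 78.6, 302 and 154 CPM in primary libraries 1, 2 and 3. It fell in the fourth comparison (-1.73 ± 0.37 SE, edgeR adjusted p = 0.0457), a call that leaving out any library but primary 1 ended, and without primary 2 it stood at -1.12 with an adjusted p of 0.121. The median log2 fold change of the list was -0.37 in proximal and -0.11 in distal metastases against primary tumours.

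Upstream kinases and factors gave 0 of 20 calls in the first 3 comparisons, with medians of 0.05, 0.06 and 0.01 for proximal against primary, distal against primary and distal against proximal. In the fourth comparison 1 of 20 fell, near the 3.71% of all genes called there: Rps6ka1, a kinase downstream of the MAPK enzymes (-1.45 ± 0.32 SE on the log2 scale, edgeR adjusted p = 0.0498). Leaving out any library but primary 1 ended that call, and without primary 2 it stood at -0.99 with an adjusted p of 0.139. Of 17 feedback inhibitors of the response, 0 were called in any comparison, with 5 of 17, 4 of 17, 0 of 17 and 4 of 17 at an unadjusted p below 0.05 in the first to the fourth, against 18.2%, 17.4%, 2.06% and 24.6% of all genes. Of 11 other AP-1 and partner genes 0 were called in any comparison. The share over all genes was 0.0494%, 0.0879%, 0% and 3.71% in the first to the fourth. The 11 had median log2 fold changes of 0.29 for proximal against primary, 0.12 for distal against primary and 0.10 for distal against proximal. In the first 2 of these, 7 were positive and 4 negative. Mafg, with the highest mean CPM of the 11, had 610, 647 and 579 CPM in distal, 646, 685 and 632 CPM in proximal and 578, 149 and 212 CPM in primary libraries 1, 2 and 3. Jund, a further JUN relative, had 232, 182 and 225 CPM in distal, 197, 146 and 209 CPM in proximal and 184, 907 and 223 CPM in primary libraries 1, 2 and 3, so primary 2 stood alone. Fosl2, a FOS relative, had 115, 81.0 and 152 CPM in distal, 109, 115 and 92.8 CPM in proximal and 91.4, 277 and 232 CPM in primary libraries 1, 2 and 3. Its high libraries were primary 2 and 3, as for Jun. Of 11 heat shock genes and 8 genes of the integrated stress response, 0 were called in any comparison. The heat shock genes had median log2 fold changes of -0.38 for proximal against primary, -0.10 for distal against primary and 0.19 for distal against proximal, and the stress response genes -0.36, -0.41 and 0.07.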

How the data were processed

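The authors deposited 1 table of raw counts per library, whole numbers for each Ensembl gene. The submitters' processing notes name TopHat2, Bowtie2, HTSeq and the build GRCm38.p3, with no strand setting given. Symbols, positions and exon lengths were taken from GENCODE on GRCm38 (46488 of 47069 identifiers matched), and promoter windows from RefSeq. No pair of libraries agreed within sampling noise (lowest chi-square per gene 16.6).

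Of the deposited counts, 18204 genes passed edgeR's filterByExpr (minimum count 10, minimum total 15) and 28865 did not; all 10 immediate early genes passed. They were tested on all 9 libraries with edgeR 4.0.16 (quasi-likelihood F-test, robust, TMM scaling) in R 4.3.3, with 6 residual degrees of freedom. A call is a Benjamini-Hochberg adjusted p, over all genes tested, that is below 0.05. The SE was taken as the size of the log2 fold change over the root of the F statistic. CPM were TMM-scaled, and log2 CPM used a prior count of 2. A gene at 1 CPM holds 28.3 to 40.4 counts, and with 3 libraries a group precision is limited by the spread between libraries. Alternatives were median-ratio size factors, DESeq2 1.42.0, limma-voom (limma 3.58.1), voom with sample quality weights, no filter, the compared groups alone, counts without CT010467.1, Lars2 and mitochondrial genes, and each library left out in turn.

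The members and lists were chosen with earlier results of these data known. Part of the genotype is not reported here. Genes named from the lists were called ones, up to 4 a list by size of change, filled up to 4 by mean CPM, of which some are described, and the 6 genes most like the members. The test was tried on simulated data with the same dispersion in all groups. That trial does not cover the larger spread of the primary libraries.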

Additional observations from a re-analysis of the deposited data

How the results depend on the processing

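No paired analysis was possible because the labels do not say which samples came from the same mouse and the library numbers were given in accession order. The genes called in proximal against primary numbered 9, and became 15 with median-ratio size factors, 1486 with DESeq2 (136 higher), 1 with limma-voom, 3607 with voom quality weights (1479 higher), 26 without a filter and 0 with only the compared groups. For distal against primary the count was 16, and became 1444 with DESeq2, 1 with limma-voom, 3126 with voom quality weights and 0 with only the compared groups. For distal against proximal it was 0 by edgeR (375 at an unadjusted p below 0.05) and 85 with DESeq2. For the mean of both sites against primary it was 676, and became 2590 with DESeq2, 97 with limma-voom and 3871 with voom quality weights. Leaving out 1 library gave 0 to 5447, 0 to 5203, 0 to 38 and 22 to 6618 calls in these 4 comparisons, with the highest count without primary 1 in the 3 that involve primary tumours. The causes were not tested.

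Of 630 alternative values for the 10 genes, 588 kept their direction and side of the threshold, 17 newly passed it and 25 changed sign. Atf3 in the mean of both sites against primary was 0.04 with voom quality weights and 0.01 without a filter, and Nr4a1 in distal against primary was 0.03 without a filter. Leaving out 1 library, the log2 fold change in distal against proximal ran from -0.02 to 0.91 for Fos, -0.09 to 0.48 for Egr1, -0.50 to 0.18 for Egr2, -0.15 to 0.96 for Egr3 and -0.13 to 2.0 for Nr4a1. In distal against primary it ran from -0.10 to 0.41 for Fosb, -0.78 to 0.30 for Egr3 and -1.70 to 0.52 for Nr4a1. In the mean of both sites against primary it ran from -0.25 to 0.11 for Fosb, -0.89 to 0.13 for Egr3 and -0.20 to 0.21 for Atf3. At 3 to 21 counts a library, depth limits Egr3.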
